A study of Mus musculus with 6 samples.

Results

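The piRNA cluster on mouse chromosome 15 at the lncRNA gene Gm36617 was described in round spermatids, which are haploid male germ cells early after meiosis. Its members were all entries of the deposited piRNA table whose names place them on chromosome 15 in the cluster at 59245061-59304022, 58.962 kb in length. There were 220905 such entries of 9924085 in all 773 clusters, and 75473 of them had a count in any library. Entries of the same position, strand and length were summed, which gave 49892 single piRNAs with a count, of 1552853 in the whole table. By mean CPM, here counts scaled to the total of the piRNA table, the cluster ranked 7 among the 773, and it was chosen by its counts in these libraries, which are therefore a description.

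Small RNA of purified round spermatids was sequenced from the testes of Miwi knockout (KO) mice and of wild-type (WT) mice at postnatal day 21, in 3 libraries of each genotype. The labels give the strain as C57BL/6, the knockout as global, and C57BL/6J as the background that both genotypes share. The libraries carry the numbers 1 to 3 in each genotype, and nothing in the labels says that a number is a separate animal, so the p-values below reflect the spread among these samples alone, part of which may be technical. The study asked whether loss of MIWI alters the pachytene piRNAs of these cells.

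Pachytene piRNAs are small RNAs that male germ cells cut from long single-stranded transcripts during meiosis, and many of their clusters are transcribed in both directions from a shared start. PIWI proteins bind them. MIWI (PIWIL1) mostly holds piRNAs of about 29-32 nt and MILI (PIWIL2) mostly holds piRNAs of about 25-28 nt, and the 3′ end is trimmed back to the length that the protein covers, so that one 5′ end can carry RNAs of several lengths. A 5′ U is usual for both proteins.

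The libraries differed in depth. Totals of the piRNA table were 1772234, 1009902 and 1785660 in KO replicates 1 to 3, against 4059156, 4359620 and 6623310 counts in WT replicates 1 to 3, and the cluster held 57393, 33007 and 58358 counts in KO, against 169769, 182716 and 277893 counts in WT. The mRNA of the targeted gene was not analysed here, and it gives no check of the genotype labels. All 4 of the germ cell miRNAs checked were found, and summed they made up 29.6-33.5% of miRNA counts in KO libraries and 27.5-29.1% in WT libraries. All 7 miRNAs of other testis cells and blood were also found, with a sum of 2.50-2.91% in KO and 3.04-4.05% in WT, and none of the 11 was at 0 in any library. Their part in the results was not tested. Fewer cells of a type and less RNA per cell cannot be told apart in such libraries.

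Gm36617 is annotated on the plus strand in GENCODE M21 (GRCm38) with 4 exons, at 59275396-59275475, 59287520-59287600, 59290942-59291088 and 59291581-59291946. Its exons are the part of the cluster whose sequence was read. The strongest 5′ end inside an exon lay in exon 1 at position 59275421, and its RNAs of 26 to 31 nt are shown because they share that 5′ end and differ in their 3′ end by genotype. Capitals mark the bases after position 26, sequences are 5′ to 3′ on the plus strand of GRCm38 with T for U, and the last, longest RNA spans chr15:59275421-59275451.
26 nt: tgaaagatgtcaacctgagctgaagc
27 nt: tgaaagatgtcaacctgagctgaagcC
28 nt: tgaaagatgtcaacctgagctgaagcCA
29 nt: tgaaagatgtcaacctgagctgaagcCAC
30 nt: tgaaagatgtcaacctgagctgaagcCACT
31 nt: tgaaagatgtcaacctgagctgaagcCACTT

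The 31 nt RNA had 0, 0 and 0 counts in KO replicates 1 to 3, against 50, 39 and 114 counts in WT. Against a floor of 3 counts over the 3 KO libraries it was at least 20.5-fold lower in KO in CPM. The 30 nt RNA also had 0 counts in each KO library, against 11, 8 and 13 in WT. The 26 nt RNA had 26, 18 and 39 counts in KO, against 7, 0 and 9 in WT, and the 28 nt RNA had 35, 17 and 27 counts in KO, against 4, 6 and 6 in WT. Among these 6 lengths the KO counts thus ended at 29 nt, while 31 nt was the most frequent in WT. With all lengths summed, this 5′ end was at 60.9, 54.5 and 71.7 CPM in KO, against 24.9, 16.5 and 26.9 CPM in WT, without overlap. With edgeR it changed by 1.25 ± 0.19 on the log2 scale (SE, adjusted p = 3.95e-08), but by -0.16 when scaled to miRNAs (edgeR adjusted p = 0.511).

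A second 5′ end in exon 1 lay 7 bases further on, and exon 4 held 1 of the exonic 5′ ends that are further from the start. Both also began with T. They are shown with the bases after position 27 and after position 26 in capitals, the first at chr15:59275428-59275458 and the second at chr15:59291677-59291703, both on the plus strand of GRCm38.
Exon 1, second 5′ end, 31 nt: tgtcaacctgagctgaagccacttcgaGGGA
Exon 4, 27 nt: tgacacagtgtagaatcctttgcagcT

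The 31 nt RNA of the second end had 3, 1 and 5 counts in KO, against 2, 2 and 8 in WT, so at this end the longest of the frequent RNAs was not missing in KO. The exon 4 RNA had 4, 7 and 4 counts in KO, against 3, 2 and 4 in WT, from libraries of lower depth in KO. Over all 4 exons, plus-strand counts summed to 222, 122 and 260 in KO, against 170, 150 and 323 in WT, which was 1.497-1.85% of the plus-strand counts of the cluster in KO and 0.436-0.605% in WT. A 5′ U stood at 90.4-94.6% of these exonic counts in KO libraries and at 94.0-94.1% in WT libraries. Most piRNAs of the cluster thus lay outside the exons, and their sequences are not printed.

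The cluster was made of 2 arms that point away from each other. Left of the annotated start of Gm36617 nearly all counts were on the minus strand, and right of it nearly all were on the plus strand. Among 5′ ends with a mean of at least 5 CPM, the rightmost of the minus arm lay at 59275196 and the leftmost of the plus arm at 59275421, with 224 bases between them. From there such 5′ ends reached 25.3 kb to the left on the minus strand and 22.2 kb to the right on the plus strand. Minus-strand counts right of the start were 0.236% ± 0.00585 of the cluster in KO, against 0.132% ± 0.0134 in WT, and plus-strand counts left of it were 0.145% ± 0.0235 in KO, against 0.0898% ± 0.0158 in WT (SD, n = 3). The RefSeq model of Gm36617 instead runs from 59246207 to 59291951, and its strand was not read here. Its span covers the 5′ ends of the minus arm with a mean of at least 5 CPM, which lie outside the GENCODE exons. Neighbouring genes in RefSeq were the pseudogenes Gm7691 on the left and Zfp572 on the right, with Sqle, which encodes squalene epoxidase of cholesterol synthesis, beyond.

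**Figure D1:**
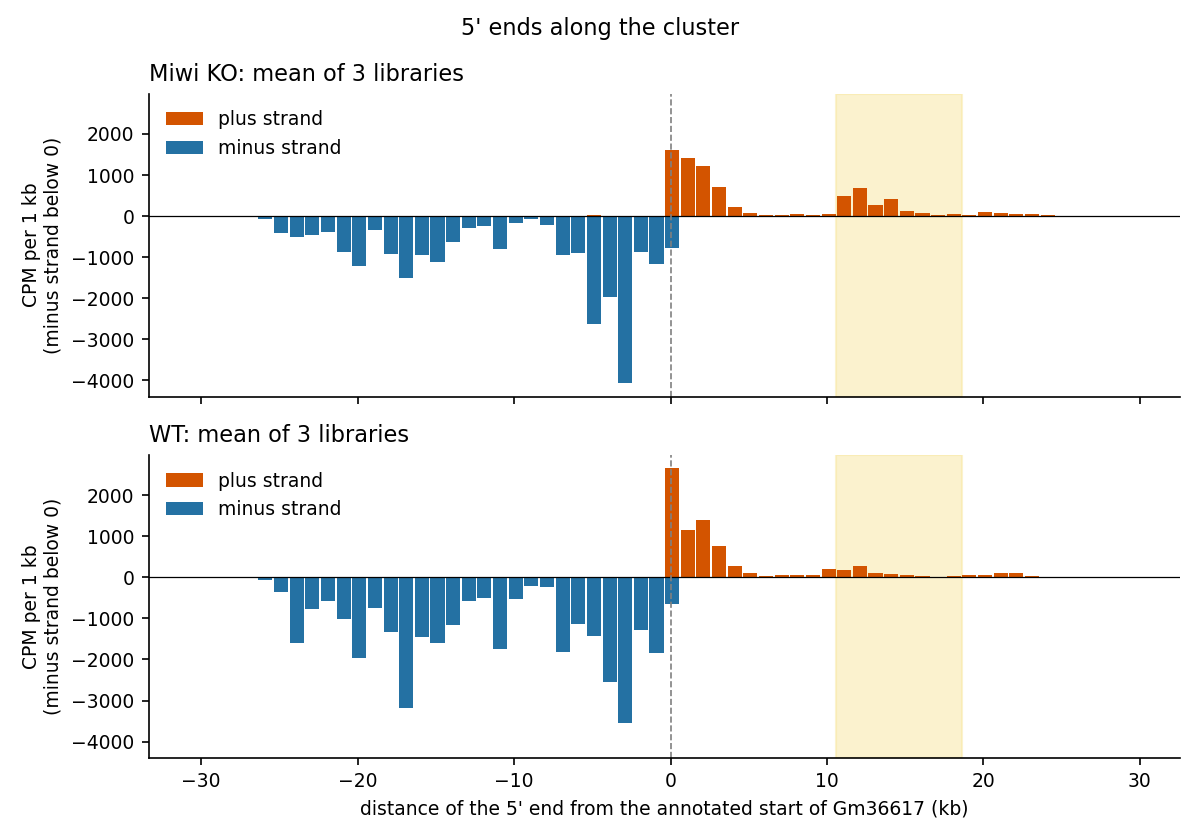
Mean CPM of 5′ ends in 1 kb bins along the cluster by distance from the annotated start of Gm36617 (dashed line), in Miwi KO (top) and WT (bottom), 3 libraries each; plus-strand bins are drawn above 0 and minus-strand bins below. In both genotypes the strands part at the start, and the shaded stretch from 10.6 to 18.6 kb was at 2138 CPM in KO, against 744 CPM in WT.

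Opposite strands seldom overlapped. PIWI slicing in the ping-pong cycle leaves pairs of piRNAs on opposite strands that overlap by 10 nt at their 5′ ends. Pairs with that overlap held 119 counts of 148758 in KO and 405 counts of 630378 in WT, when each pair is given the lower of its 2 counts. At the other overlaps from 1 to 30 nt the median was 71 in KO, against 277 in WT, and the highest was 135 in KO, against 590 in WT, each at 29 nt, so an overlap of 10 nt was not the most frequent in either genotype.

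The whole cluster was a smaller part of the piRNA table in KO. It made up 3.24%, 3.27% and 3.27% of the table in KO replicates 1 to 3, against 4.18%, 4.19% and 4.20% in WT, without overlap. The log2 change of the cluster sum was -1.41 ± 0.06 (SE, edgeR on all clusters), and no p is given because the cluster was selected with its counts known. That value depends on the scaling, since the median log2 change of all 765 clusters tested was 0.01 with TMM factors, 1.06 with library size alone and -0.55 with miRNA scaling, where the change of this cluster was -0.36 and -1.97. It was below the median cluster under each. Among the 74 clusters with a mean of at least 1000 CPM it was closer to the middle. There its log2 ratio of KO to WT CPM, -0.36, ranked 42 from the highest, beside a median of -0.19. The 2 arms did not contribute alike. The minus arm was at 24525 ± 203 CPM in KO, against 33884 ± 62.2 CPM in WT (SD, n = 3), so it was lower in KO by a factor of 1.38. The plus arm was at 7953, 8016 and 7832 CPM in KO, against 7885, 7865 and 8011 CPM in WT, with overlapping libraries.

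The share of the plus strand, the minor strand of the cluster, was accordingly larger in KO. It was 24.7%, 24.7% and 24.1% of the cluster counts in KO, against 18.9%, 18.8% and 19.2% in WT, a difference of 5.50 percentage points (exact two-sided permutation p = 0.1, the smallest that 3 against 3 libraries allow, and adjusted p = 0.1 over 4 such tests). In the fit of strand sums across all clusters, added after seeing the data, the log2 change was -1.02 ± 0.04 for the plus strand and -1.49 ± 0.04 for the minus strand (SE, edgeR), given without a p because these sums add up to the selected total. Over all 1065 cluster strands in that fit, 23.6% were called higher in KO and 29.5% lower. With library size alone the log2 change was 0.00 for the plus strand and -0.46 for the minus strand. A larger plus-strand share in KO was not particular to this cluster. In the 2 clusters next above in mean CPM, where plus was also the minor strand, it was 29.1% and 6.30% in KO, against 28.2% and 3.14% in WT. In the 2 next below, with plus again the minor strand, it was 40.5% and 0.170% in KO, against 30.3% and 0.0959% in WT. Over all other clusters together the plus strand held 55.7% ± 0.098 in KO, against 49.8% ± 0.038 in WT (SD, n = 3). That sum disregards which strand is the minor one in each cluster, so it is not a minor-strand share.

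Cluster piRNAs were shorter in KO. In each KO library 27 nt was the most frequent length, and in each WT library it was 30 nt. RNAs of 27 nt were 24.5% ± 0.279 of the cluster counts in KO, against 4.85% ± 0.212 in WT, RNAs of 30 nt were 7.31% ± 0.493 in KO, against 29.99% ± 0.125 in WT, and RNAs of 31 nt were 2.23% ± 0.0788 in KO, against 24.2% ± 0.344 in WT (SD, n = 3). RNAs of 32 nt were 0.708% ± 0.0727 in KO, against 9.06% ± 0.519 in WT. The 2 genotypes crossed between 28 and 29 nt.

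**Figure D2:**
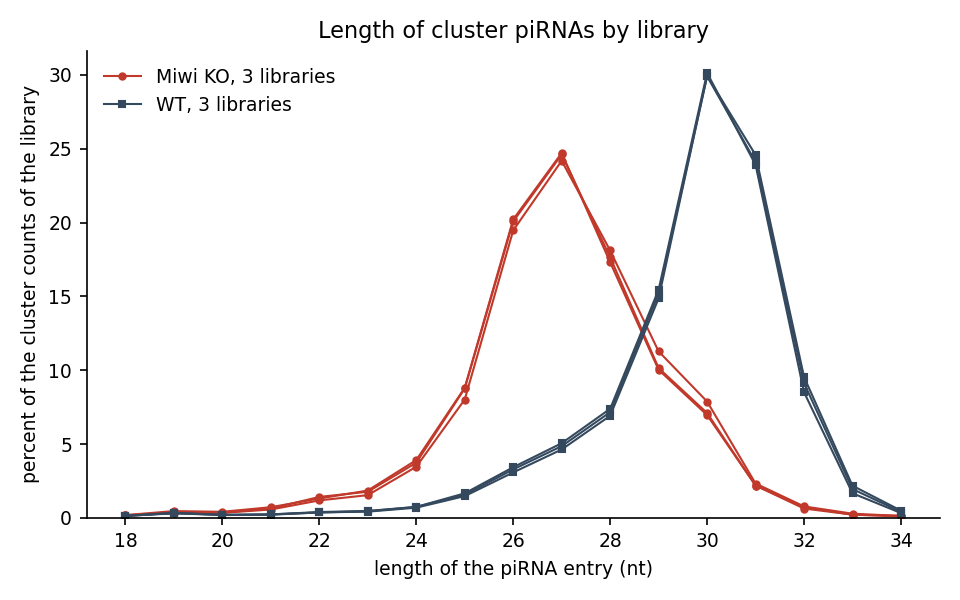
Percent of the cluster counts of each library at each length from 18 to 34 nt, with a line for each of the 3 Miwi KO and 3 WT libraries. The KO lines peak at 27 nt (24.5% on average) and the WT lines at 30 nt (29.99%).

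Among RNAs of 25-32 nt, the share of 29-32 nt was 22.1%, 21.8% and 24.2% in KO, against 82.3%, 81.7% and 83.1% in WT. The difference of -59.7 percentage points was far larger than the spread between libraries (exact permutation p = 0.1, adjusted p = 0.1). In the fit of length classes across all clusters, the 29-32 nt class of this cluster changed by -3.29 ± 0.06 on the log2 scale (SE, edgeR). The 25-28 nt class changed by 0.70 ± 0.04 (SE). No p is given for the length classes, because they too add up to the selected total. Over all 1793 classes in that fit, 27.3% were called higher in KO and 32.1% lower. Under miRNA scaling the long class changed by -3.88 ± 0.14 and the short class by 0.11 ± 0.10 (SE, edgeR), so the rise of the short class depended on the scaling. In CPM the long class was at 6756 ± 447 in KO, against 32858 ± 225 in WT, and the short class at 23017 ± 208 in KO, against 7048 ± 297 in WT (SD, n = 3). RNAs over 32 nt were at 116 ± 16.3 CPM in KO, against 979 ± 142 CPM in WT. With TMM factors edgeR put this class at -4.07 on the log2 scale. RNAs under 25 nt were at 2694 ± 210 CPM in KO, against 1011 ± 33.7 CPM in WT.

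The shift was close to that of the table as a whole. As the log2 ratio of long to short counts, this cluster stood above all other clusters of the same library by 0.04, 0.04 and 0.06 in KO and by 0.15, 0.15 and 0.18 in WT. The difference of -0.11 did not overlap between genotypes (exact permutation p = 0.1, adjusted p = 0.1), but it is small beside the change of the ratio itself, which was at -1.77 in KO, against 2.22 in WT for this cluster and at -1.82 in KO, against 2.06 in WT for the others. Among 74 clusters with a mean of at least 1000 CPM, the 29-32 nt share of this one ranked 46 from the highest in KO, against 31 in WT. The 2 clusters next above it in mean CPM, on chromosomes 7 and 18, had 29-32 nt shares of 23.2% and 22.9% in KO, against 80.6% and 84.9% in WT, and the 2 next below, on chromosomes 12 and 5, had 23.3% and 21.9% in KO, against 84.9% and 82.3% in WT. In totals the log2 ratio of KO to WT in the share of the table was -0.36 for this cluster, and -0.04, -0.88, -1.58 and -0.59 for those 4 in the same order.

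Single piRNAs moved with their length. Of the 49892, 2346 passed the filter on low counts, and these held 60.4% of the counts of the cluster. A piRNA could pass through 1 genotype alone. With TMM factors 545 rose and 1443 fell in KO, 23.2% and 61.5% of those tested in the cluster, where the background was 33.1% of all 60631 piRNAs tested called higher and 54.6% called lower. The split moved to 892 higher and 1311 lower with library size alone, where the background was 45.4% and 48.8%, and to 302 and 1543 with the size factors of DESeq2 in edgeR, where it was 21.1% and 57.7%. Of 1392 tested RNAs of 29-32 nt in the cluster, 1303 fell and 34 rose, beside a background of 90.2% lower and 4.62% higher among all tested RNAs of that length. Of 863 tested RNAs of 25-28 nt, 471 rose and 101 fell, beside 68.9% higher and 9.78% lower in the table. The difference between these shares was not tested. Of the 1303 that fell, 503 had no count in any KO library, and fitted medians over these RNAs are therefore not given.

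The largest falls were all of RNAs of the minus arm with 0 counts in each KO library. The 32 nt RNA with its 5′ end at 59272271 had 993, 1036 and 1607 counts in WT. It was thus at least 368-fold lower in KO, taken against a floor of 3 counts over the 3 KO libraries. No p is given for these RNAs, which passed the filter through WT alone and were picked by the size of their fall. The others were the 30 nt RNA at 59269136, the 33 nt RNA at 59258388, the 31 nt RNA at 59258342 and the 30 nt RNA at 59268921, which were at least 137-fold, 131-fold, 99.9-fold and 84.4-fold lower. Their WT counts ranged from 206 to 758 in single libraries, so all 5 were well above the floor in every WT library.

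The largest rises were mostly RNAs of the plus arm within intron 2 of Gm36617. The 26 nt RNA with its 5′ end at 59289752 had 98, 54 and 132 counts in KO, against 1, 1 and 0 in WT. As WT was at or under the floor of 3 counts over its libraries, no fold and no p are given for this RNA or for the next 3, which passed the filter through KO alone. At the 5′ end 59289319 the 22 nt RNA had 51, 13 and 29 counts in KO, against 1, 0 and 1 in WT, and the 25 nt RNA had 25, 23 and 24 in KO, against 1, 0 and 1 in WT. The 32 nt RNA at 59289421 had 21, 12 and 18 counts in KO, against 0, 0 and 1 in WT, so that a rise was not restricted to short RNAs. The fifth was the 26 nt RNA of the minus arm at 59272566, which had 331, 245 and 464 counts in KO, against 11, 14 and 13 in WT. At 2.71, 3.21 and 1.96 CPM in WT it also passed the filter through KO alone, and no fitted change is given. All 5 were picked among RNAs without overlap between genotypes, so that trait was fixed by the rule. Of 1211 RNAs of the cluster with a mean of at least 5 CPM, 316 rose and 618 fell without overlap. The share of such RNAs in the whole piRNA table was not worked out, so these counts cannot be read as particular to the cluster.

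The 5′ ends were largely the same in both genotypes. Of 16300 5′ ends with a count, 8546 were found in both, and these held 98.3% of KO counts and 95.4% of WT counts. The 10 strongest 5′ ends of each library held 11.04-12.6% of its cluster counts in KO and 11.6-13.2% in WT, so no single end dominated. Of these 5′ ends, 1889 passed the filter on low counts. With all lengths summed 428 rose and 964 fell in KO, 22.7% and 51.0%, beside a background of 33.4% higher and 44.4% lower among 49461. The median log2 change was -0.71 for the ends of the cluster and -0.39 for all ends tested. Scaled to miRNAs, 109 ends were called higher and 1466 lower, beside a background of 12.7% and 67.4%, and the medians were -2.11 and -1.78. With lengths summed, many 5′ ends were thus called in either direction, in the cluster as in the whole table. The difference between these shares was not tested.

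The 10 strongest 5′ ends moved in both directions, and 9 of them lay on the minus arm. The strongest, at 59272271, was at 451, 532 and 347 CPM in KO, against 843, 809 and 780 CPM in WT, which edgeR put at -1.08 ± 0.17 on the log2 scale (SE, adjusted p = 3.93e-08). The end at 59264826 was at 96.5, 105.0 and 101.9 CPM in KO, against 957, 970 and 850 CPM in WT, 9.15-fold lower in KO (log2 change -3.40 ± 0.18, edgeR adjusted p = 4.38e-27). The ends at 59251622 and 59258388 were 8.25-fold and 4.00-fold lower in KO, and the only plus-arm end of the 10, at 59275664 in intron 1 of Gm36617, was 3.76-fold lower. The end at 59271021 was 1.65-fold lower, at 248 ± 25.6 CPM in KO, against 410 ± 39.0 CPM in WT (SD, n = 3). All 6 were lower under each of the 3 scalings, beside a background of 44.4% of all 49461 5′ ends tested called lower with TMM factors.

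The other 4 were higher in KO in CPM, beside a background of 33.4% of all 5′ ends tested called higher with TMM factors. The end at 59270215 was at 646, 726 and 816 CPM in KO, against 256, 251 and 218 CPM in WT (log2 change 1.39 ± 0.16, edgeR adjusted p = 1.41e-11), and that at 59272566 was at 432, 515 and 590 CPM in KO, against 149, 150 and 166 CPM in WT. The end at 59272170 was 4.15-fold higher in KO, at 501 ± 26.1 CPM in KO, against 121 ± 21.8 CPM in WT (SD, n = 3). The end at 59272582 was 1.46-fold higher in KO and passed with a log2 change of 0.35 (edgeR adjusted p = 0.0454). Under miRNA scaling the end at 59272170 still rose, by 0.47 (edgeR adjusted p = 0.0165), those at 59270215 and 59272566 changed by 0.00 and 0.12 and did not pass, and that at 59272582 turned to -1.04.

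**Figure D3:**
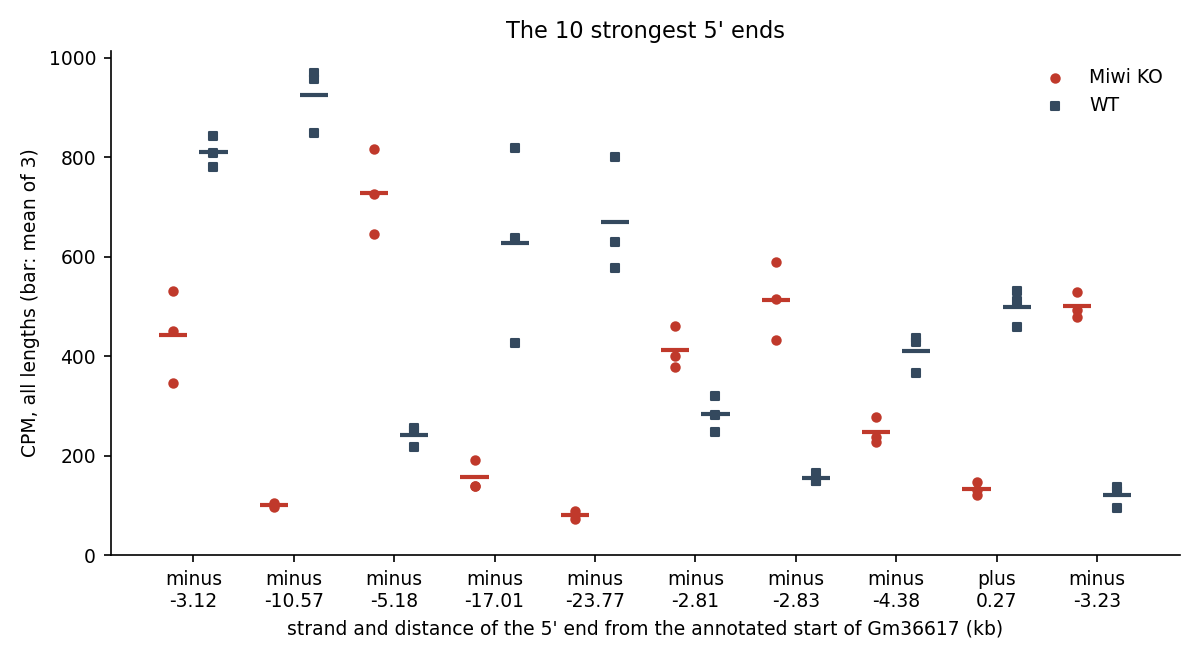
CPM with all lengths summed in each Miwi KO and WT library at the 10 5′ ends with the highest mean, labelled by strand and distance from the annotated start of Gm36617; bars are means of 3. The end at -10.57 kb lies near 101 CPM in KO, against 925 CPM in WT, and the end at -3.23 kb near 501 CPM in KO, against 121 CPM in WT.

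Each of these ends carried shorter RNAs in KO. At 59272566 the most frequent length was 26 nt in KO, against 31 nt in WT, and RNAs of 29-32 nt were 3.97% of its counts in KO, against 93.2% in WT. At 59251622 it was 27 nt in KO, against 30 nt in WT, and at 59258388 it was 27 nt in KO, against 31 nt in WT. The end at 59270215 differed from these in that its RNAs of 29-32 nt were 49.4% of counts in KO, against 47.2% in WT. There the most frequent length was 29 nt in KO, against 33 nt in WT, a length beyond that range.

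The same was seen when the 5′ end was held fixed across the cluster. Of all 5′ ends, 2023 had at least 10 counts in each genotype, and they held 83.4% of KO counts and 77.9% of WT counts. The mean length of their RNAs was lower in KO at 1918 of them and higher at 73. Averaged over these ends it was 26.95, 26.92 and 27.04 nt in KO, against 28.89, 28.89 and 29.02 nt in WT, a difference of -1.96 nt (exact permutation p = 0.1, adjusted p = 0.1). The most frequent length was the same in both genotypes at 423 ends, 3 nt shorter in KO at 417, 4 nt shorter at 334 and 2 nt shorter at 297. The genotypes did not overlap, and the spread within each was 0.0609 nt in KO, against 0.0730 nt in WT (SD, n = 3).

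Ends with longer RNAs in WT had lower ratios of KO to WT. At the 161 shared ends with a WT mean length under 27 nt, the median log2 ratio of KO to WT CPM was 1.82, and 158 of them were higher in KO. At the 725 ends with a WT mean length from 29 to 30 nt the median was -0.26, with 304 higher in KO, and at the 414 ends of 30 nt or more it was -0.76, with 131 higher. Over the 2023 ends, Spearman's rho between WT mean length and that ratio was -0.58 and Pearson's r was -0.54. These are given as a description without a p, since the ends share the same 6 libraries and the WT counts enter both measures.

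**Figure D4:**
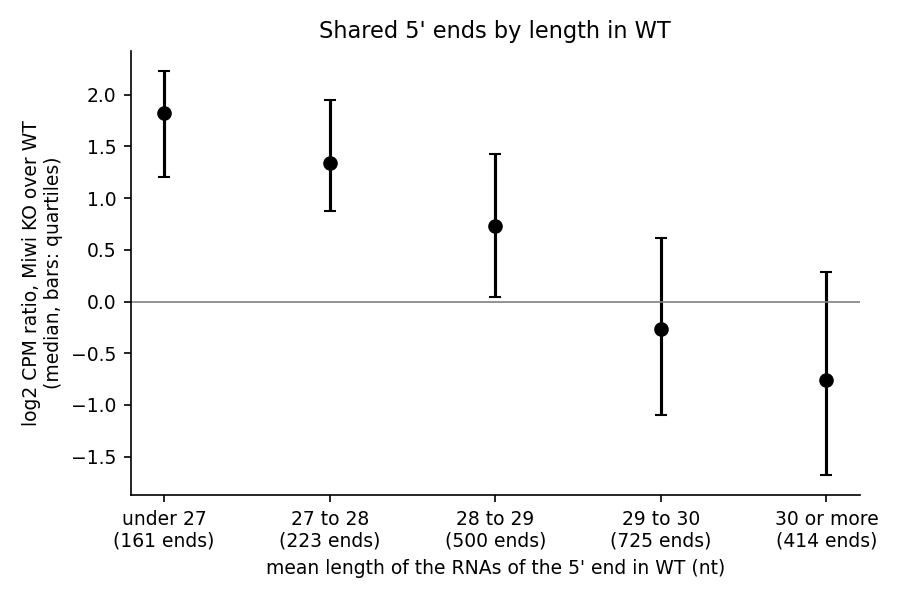
Median log2 ratio of Miwi KO to WT CPM at 5′ ends with at least 10 counts in each genotype, by the mean length of their RNAs in WT; bars span the quartiles. The median is 1.82 at ends under 27 nt and -0.76 at ends of 30 nt or more.

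The counts were also spread differently along the arms. Set against each other in 1 kb bins by strand, the mean profiles of KO and WT differed in the place of 18.0% of the counts, while libraries of 1 genotype differed by 2.75% on average and by 3.79% at most. In the fit of such bins across all clusters, added after seeing the data, 10 of the 65 bins tested in this cluster rose and 42 fell in KO, beside a background of 41.1% higher and 35.8% lower among 4300. With library size alone 18 rose and 35 fell, beside 54% and 28.9%, and miRNA scaling left 1 higher and 59 lower, beside 6.67% and 60.8%. Of the 31 plus-strand bins 8 rose and 16 fell, and of the 34 minus-strand bins 2 rose and 26 fell. On the minus arm the bin at 59270001-59271000, with its centre 4.9 kb left of the start, was at 2635 CPM in KO, against 1431 CPM in WT, while the bin at 59258001-59259000 was at 1516 CPM in KO, against 3184 CPM in WT.

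A stretch of 8 kb in the plus arm stood out and is described without a test, because it was chosen after its values were seen. It is the longest run of 1 kb bins of the plus arm in which every KO library had a higher CPM than every WT library. It runs from 59286001 to 59294000, 10.6 to 18.6 kb right of the start. The stretch begins in intron 1, spans exons 2 to 4 with the introns between them, and reaches past the end of exon 4 at 59291946. It was at 2189, 2121 and 2103 CPM in KO, against 737, 760 and 736 CPM in WT, 2.87-fold higher in KO, and it held 6.56% ± 0.173 of the cluster counts in KO, against 1.78% ± 0.0322 in WT (SD, n = 3). The part of the plus arm nearer to the start was at 5436 ± 91.7 CPM in KO, against 6769 ± 105 CPM in WT, and the part beyond the stretch at 360 ± 18.8 CPM in KO, against 407 ± 23.6 CPM in WT. The left border of the stretch was sharp. The 1 kb bin just before it was at 61.5, 69.3 and 56.0 CPM in KO, against 198, 198 and 207 CPM in WT, and the first bin within it at 494, 475 and 473 CPM in KO, against 168, 165 and 167 CPM in WT.

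Summed over the stretch, the CPM of long RNAs overlapped between genotypes and that of short RNAs was far apart. RNAs of 29-32 nt were at 501 ± 19.8 CPM in KO, against 496 ± 10.3 CPM in WT, whereas RNAs of 25-28 nt were at 1396 ± 46.6 CPM in KO, against 189 ± 5.92 CPM in WT (SD, n = 3), 7.39-fold higher in KO. In the part nearer to the start, RNAs of 29-32 nt were at 1086 ± 36.8 CPM in KO, against 5348 ± 113 CPM in WT, and RNAs of 25-28 nt at 3876 ± 85.1 CPM in KO, against 1094 ± 36.5 CPM in WT. The share of 29-32 nt among 25-32 nt in the stretch was 26.4% ± 1.08 in KO, against 72.4% ± 0.721 in WT. Nearer to the start it was 21.9% ± 0.846 in KO, against 83.0% ± 0.769 in WT. The 29-32 nt RNAs of the 8 single bins had log2 changes from -1.73 to 0.96 with library size alone, from -2.43 to 0.25 with TMM factors and from -3.31 to -0.65 under miRNA scaling, so the level sum in CPM covers bins that went both ways. In the same bins the short RNAs had log2 changes between 1.40 and 3.12 with TMM factors and between 0.51 and 2.22 under miRNA scaling, while the log2 changes of all lengths together had a median of 0.96 with TMM factors and of -0.22 under miRNA scaling.

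**Figure D5:**
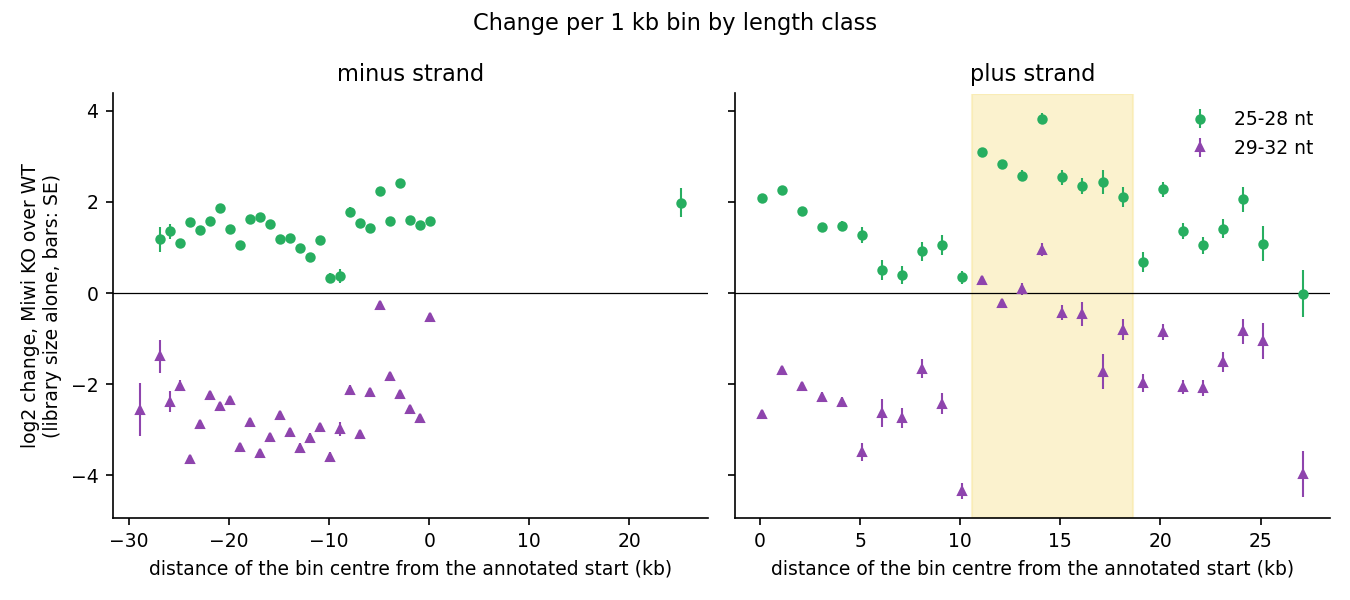
Log2 change of Miwi KO over WT with library size alone (edgeR, bars are SE) in 1 kb bins of the minus and the plus strand, for RNAs of 25-28 nt and 29-32 nt, by distance from the annotated start of Gm36617. The 8 shaded bins of the stretch from 10.6 to 18.6 kb lie between 2.11 and 3.83 for the short RNAs, and the other plus-strand bins between -0.01 and 2.28.

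The strongest 5′ ends of the stretch, also chosen after their values were seen, show how it was composed. The end at 59287648 in intron 2 was at 109, 106 and 150 CPM in KO, against 53.2, 48.4 and 58.1 CPM in WT, with 30 nt as its most frequent length in KO, against 31 nt in WT. The end at 59289752 was at 67.7, 77.2 and 86.2 CPM in KO, against 1.23, 2.29 and 0.755 CPM in WT, and 80.7% of its KO counts were at 26 nt. The end at 59289319 was at 64.3, 54.5 and 53.8 CPM in KO, against 1.48, 1.15 and 1.81 CPM in WT, and its most frequent length in KO was 22 nt, at 35.1% of counts. The end at 59286989 was at 57.0, 43.6 and 54.9 CPM in KO, against 8.87, 11.01 and 8.15 CPM in WT, with 27 nt as its most frequent length in KO, against 30 nt in WT. In KO, RNAs of 29-32 nt were 63.7% of counts at the first of these 4 ends, 5.40% and 0.377% at the 2 others in intron 2 and 28.4% at 59286989, against 76.5%, 80.0%, 30.4% and 74.6% in WT in the same order.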

How the data were processed

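The authors deposited raw counts of small RNA reads per reference sequence, made with featureCounts v1.5.0-p2 per the file headers. The submitters' processing notes also name cutadapt, DESeq2 and the build mm9. Which aligner was used, and how multiply matching reads were counted, is not given in the sources used here. Names in the table fit GRCm38: read at GRCm38 exon positions, a U stood first in 85.4% of plus-strand and 83.0% of minus-strand counts when the named position was taken as the leftmost base. Coordinates are therefore given as GRCm38, 1-based. Lengths are those of the entries, 20 nt subtracted, not of reads. In the cluster 113602 entries repeat an earlier position, strand and length, and they were summed.

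Sums were tested with edgeR 4.0.16 (its quasi-likelihood test with TMM normalization, after filterByExpr at a minimum count of 10 and a total of 15) in R 4.3.3 across the whole piRNA table, with Benjamini-Hochberg adjustment and a threshold of 0.05. miRNA scaling took TMM factors and library sizes from the miRNAs of the deposited small RNA count table. CPM values divide by table totals alone. Shares were compared with exact permutation tests in scipy 1.17.1. Values after ± are, as marked, the SD over libraries or an SE worked out from the edgeR log2 change and its test statistic. Floors cover counting error only. On simulated data 88.5% of 200 piRNAs changed 2-fold among 60631 were called, and 100% of those changed 4-fold. Those 200 were well counted and rose and fell in equal number. In the data 33.1% of tested piRNAs were called higher and 54.6% lower, with TMM factors from 0.54 in WT replicate 3 to 1.73 in KO replicate 2. The simulation therefore cannot show how well the test does on data that differ this widely.

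The labels do not say that replicate numbers pair the libraries. Same-numbered libraries deviated together with correlations of 0.00, 0.05 and 0.08, and differently numbered ones with correlations from -0.07 to 0.02. These cannot exclude a pairing, since counting noise also lowers them, and fits with the replicate number as a block are given below. Named were the 10 5′ ends with the highest mean CPM, the 5 largest rises and 5 largest falls without overlap among piRNAs with a mean of at least 5 CPM, up to 3 shared 5′ ends with the most counts, and 2 clusters above and 2 below in CPM. The cluster, the lists and these rules were chosen with earlier results of these data known. Sequences are from the GENCODE M21 transcript. Alternatives were DESeq2 1.42.0, other scalings and filters, other length limits, the replicate block and leaving out each library.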

Additional observations from a re-analysis of the deposited data

How the results depend on the processing

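The direction of each result below was the same under every alternative tried. The change of the 29-32 nt class was between -3.89 and -2.28 over the 13 alternatives. The plus-strand share, the 29-32 nt share, that share against the other clusters and the mean length at shared 5′ ends cannot reach 0.05 with 3 against 3 libraries, so their p says nothing about stability. Counts of single piRNAs depended on settings. Of 2346 tested in the cluster, 892 rose with library size alone, 302 with the size factors of DESeq2 in edgeR and 202 with the Wald test of DESeq2. The background called higher in the whole table was 45.4%, 21.1% and 14.5% in the same order. With every entry tested on its own 263 of 2218 rose, beside a background of 19.9%. With a total of at least 10 counts as the filter 1014 rose and 6464 fell, and with a minimum count of 30, 233 rose and 482 fell, because the number tested changed. For 5′ ends the first of those filters gave 644 of 5771 that rose and 2145 that fell, beside a background of 16.6% and 36.1%. The second gave 206 of 783 that rose and 432 that fell, beside 39.7% and 45.3%. Under miRNA scaling 109 of 1889 ends rose and 1466 fell, beside 12.7% and 67.4%. The change of the 25-28 nt class was 0.11 ± 0.10 under miRNA scaling (SE, edgeR). The change of the cluster sum was -0.36 with library size alone and -1.97 under miRNA scaling, and the profiles differed by 14.2% in bins of 5 kb.

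Leaving out each library in turn, between 305 and 664 single piRNAs rose and between 1025 and 2380 fell. The background over the table was 21.2-27.2% higher and 47.0-56.7% lower. Without WT replicates 1, 2 and 3 there were 305, 315 and 324 rises among 1832, 1847 and 1844 tested. Without KO replicates 1, 2 and 3 there were 2337, 2358 and 2380 falls, where 3770, 3819 and 3811 were tested in place of 2346. Between 364 and 566 5′ ends rose and between 764 and 1170 fell, beside a background of 28.4-37.0% higher and 39.6-42.7% lower. The cluster sum changed by -1.46 to -1.32, the 29-32 nt class by -3.37 to -3.25 and the 25-28 nt class by 0.64 to 0.71, and the profile difference was 17.8% to 18.2%. The 29-32 nt share differed by -60.4 to -59.2 points, its log2 ratio against the other clusters by -0.12 to -0.10, the plus-strand share by 5.40 to 5.69 points and the length at shared 5′ ends by -2.03 to -1.94 nt. With the replicate number as a block, 528 single piRNAs rose and 1442 fell, 424 5′ ends rose and 963 fell, the cluster sum changed by -1.41, and the length classes by -3.29 and 0.70. Both length classes kept their direction under the block as well.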

Other observations

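Counts of nested RNAs at some 5′ ends were nearly level over several lengths and then stopped. At the minus-arm end 59272271, KO replicate 1 had 126, 110, 127, 134, 131 and 122 counts at the 6 lengths from 26 to 31 nt and 0 counts at 32 nt, while WT replicate 1 had 43, 31, 50, 60, 1472, 681 and 993 counts at the 7 lengths from 26 to 32 nt. KO replicates 2 and 3 showed the same, with 65 to 99 and 71 to 111 counts from 26 to 31 nt and 0 at 32 nt. At the end 59270215 the KO counts were likewise level from 27 to 30 nt, at 300, 233, 291 and 262 in replicate 1, with 1 count at 31 nt. At 59272566 no RNA of 24 or 25 nt was counted in any library, and KO replicate 1 had 331 counts at 26 nt, 364 at 27 nt and 37 at 28 nt. Lengths are those of the reference entries and the counting of reads that fit several nested entries is not given in the sources used here, so what sets these level counts was not tested.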
